A study of Homo sapiens with 6 samples.

Results

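Short-read RNA-seq of A549 cells, an established line from a human lung adenocarcinoma, was compared between cells transfected with si-PLANE.1, the first of 2 siRNAs against the lncRNA PLANE, and cells transfected with the control siRNA si-ctrl. Both groups were transfected for 48 h with Lipofectamine 3000, and each group holds 2 libraries, so the comparison uses 4 of the 6 libraries of the series. The remaining 2 libraries carry si-PLANE.2, another siRNA against PLANE, and are used only for values set side by side. The 4 libraries were chosen by their labels, with replicate 1 of si-PLANE.1 paired with replicate 1 of si-ctrl and replicate 2 with replicate 2. The level of PLANE was not analysed here, and its knockdown is therefore unchecked in what follows. All cells are of 1 line.

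PLANE is a long noncoding RNA of the antisense strand of the MELTF locus, and the study examined it as a regulator of pre-mRNA splicing and proliferation in cancer cells. A549 cells carry an inactivating change in KEAP1, the adaptor that sends the transcription factor NRF2 to degradation, and are therefore known for a high basal level of NRF2 target genes. They also secrete chemokines driven by NF-kB and, like many epithelial cells, turn on interferon-stimulated genes when they sense double-stranded RNA. Each group carries a single siRNA sequence, so knockdown of PLANE and other effects of si-PLANE.1 cannot be told apart here.

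The si-ctrl libraries held 13643800 and 14267231 expected counts, and the si-PLANE.1 libraries held 11093137 and 10572151. All 14 markers of A549 cells passed the minimum level, with a median of 889 and 838 FPKM under si-ctrl and of 757 and 788 FPKM under si-PLANE.1. Of 11 alveolar type 2 markers 8 stayed under 1 FPKM in all 4 libraries, as did 11 of 16 leukocyte markers. The same held for 9 of 13 fibroblast and endothelial markers and 4 of 9 neuronal markers. Haemoglobin genes, a list chosen after values were seen, summed to 696 and 680 FPKM with si-ctrl and to 938 and 6.34 FPKM with si-PLANE.1. The labels do not say whether replicates were separate cultures, so p-values measure the spread between these libraries, which may be technical. Replicates of the same number moved together, since the difference between replicate 2 and replicate 1 in si-ctrl correlated with that in si-PLANE.1 (Pearson's r = 0.382 across 14535 genes, which are not independent replicates). Fewer cells of a state and less RNA per cell cannot be told apart in such bulk libraries.

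At the gene level, 494 genes rose and 731 fell after si-PLANE.1 among 14535 genes tested (8.43% called), using edgeR's quasi-likelihood test with the replicate number as a block and a Benjamini-Hochberg adjusted p under 0.05. All adjusted p-values below come from that test unless another is named. The block leaves 1 residual degree of freedom, so the calls lean on a spread shared across genes. Without the block only 5 genes passed (0.0344%), and 1517 had an unadjusted p under 0.05, against 3041 with it. Of the 1225 called genes, 1208 moved the same way in both pairs, whereas 63.1% of all genes tested did. The blocked fit used these same pairs, so this agreement was largely built into the calls and is no independent check. The median absolute log2 fold change of the called genes was 0.53, and 40.3% of them rose. With upper-quartile scaling 50% of the calls were higher, and with library totals 69.1%, so the balance of directions depended on the scaling.

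**Figure D1:**
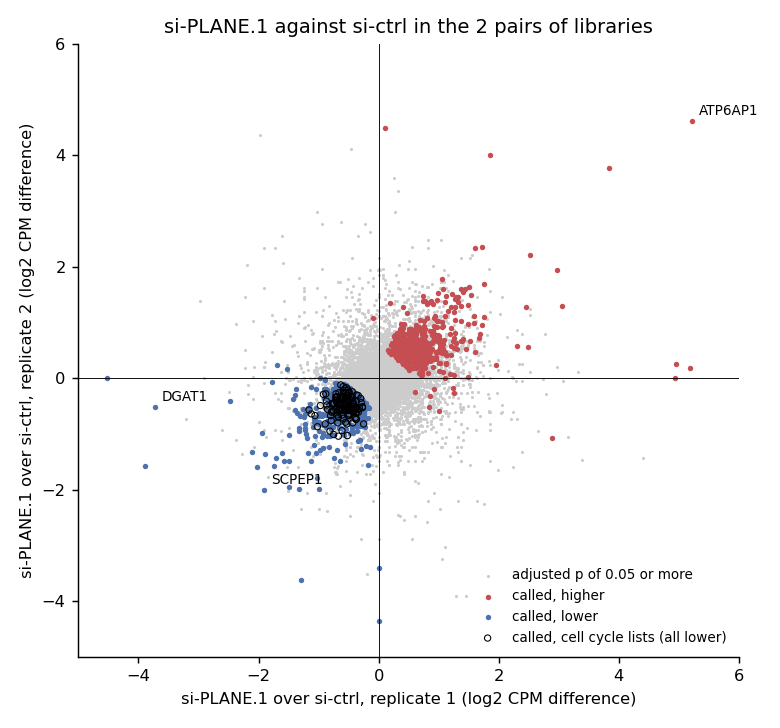
Difference in log2 CPM between si-PLANE.1 and si-ctrl in the first pair of libraries (x axis) and in the second (y axis), 1 point per gene. Called genes lie mostly at the lower left and upper right, all called members of the cell cycle lists lie in the lower left, and ATP6AP1 stands apart at 5.22 and 4.62. The axes leave out 8 genes.

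Genes of the cell cycle were a minority of these calls. Of 291 tested genes in 3 cell cycle lists, 128 were called and all 128 fell, beside 5.03% of all genes that were called lower. The remaining 1097 called genes lie outside these lists, comprising 494 that rose and 603 that fell, of which 77 rose and 48 fell by at least 1 on the log2 scale. The accounts that follow concern these genes.

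Among called genes with a mean of at least 5 FPKM, the largest change was that of ATP6AP1, which encodes an accessory subunit of the V-ATPase, the proton pump that acidifies lysosomes. ATP6AP1 (GRCh37, chrX:153656979-153664862, + strand) had 3.83 and 3.17 FPKM with si-ctrl against 31.4 and 25.3 FPKM with si-PLANE.1. The groups did not overlap, and its log2 fold change was 5.05 ± 0.21 (SE, n = 2 per group, adjusted p = 3.62e-120). It was also called without the block (adjusted p = 0.000401). The rise came from 1 of its transcripts, ENST00000369762, a transcript of 2099 bases with 0.01 and 0.37 FPKM with si-ctrl against 30.24 and 23.47 FPKM with si-PLANE.1. The shorter transcript ENST00000484908 had 3.82 and 2.80 FPKM with si-ctrl against 1.13 and 1.83 FPKM with si-PLANE.1. In counts, which the fit used, ATP6AP1 had only 17 and 22 with si-ctrl against 623 and 464 with si-PLANE.1. The short transcript weighs less in counts than in FPKM, and the fitted fold of 33.2 is larger than that of the FPKM values. Of 19 tested V-ATPase genes ATP6AP1 alone was called by edgeR with the block, and the list had a median log2 fold change of 0.07 against 0.001 over all genes. ATP6V0C, which forms the proton-conducting ring of the pump, had 154 and 157 FPKM with si-ctrl against 152 and 146 FPKM with si-PLANE.1 (log2 fold change -0.16 ± 0.11, adjusted p = 0.447).

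HNRNPUL1, TFPI2 and SCPEP1 fell strongly and were likewise called without the block. HNRNPUL1 (chr19:41768401-41813692, + strand) encodes an RNA-binding protein related to hnRNP U. It had 199 and 224 FPKM with si-ctrl against 84.5 and 93.2 FPKM with si-PLANE.1, a fall to 0.345 of the control level (log2 fold change -1.54 ± 0.12, adjusted p = 1.29e-33, and 0.0417 without the block). Several of its transcripts fell together, among them ENST00000352456 from 65.25 and 72.17 FPKM to 21.81 and 26.61 FPKM and ENST00000602130 from 41.08 and 39.48 FPKM to 10.96 and 14.07 FPKM. TFPI2 (chr7:93514708-93520065, - strand), which encodes a secreted inhibitor of serine proteases, had 154 and 109 FPKM with si-ctrl against 48.7 and 51.5 FPKM with si-PLANE.1 (log2 fold change -1.63 ± 0.12, adjusted p = 1.97e-40, and 0.0417 without the block). SCPEP1 (chr17:55055490-55084129, + strand), which encodes a serine carboxypeptidase, had 15.1 and 12.8 FPKM with si-ctrl against 6.03 and 4.16 FPKM with si-PLANE.1 (log2 fold change -1.98 ± 0.20, adjusted p = 1.33e-20, and 0.0417 without the block). Its main transcript, ENST00000262288, nearly vanished, with 7.77 and 9.32 FPKM against 0.44 and 0.77 FPKM. In each of these genes both si-PLANE.1 libraries lay below both si-ctrl libraries. An order without overlap, in one direction or the other, was found in 41.1% of all genes tested and in 1022 of the 1225 called genes. These shares apply wherever an absence of overlap is named in this text. The fifth gene called without the block has no symbol in the tables.

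Other genes had fitted falls of more than 1 on the log2 scale. CBFB, the partner that stabilises RUNX factors on DNA, had 28.9 and 26.4 FPKM with si-ctrl against 13.7 and 9.73 FPKM with si-PLANE.1 (log2 fold change -1.30 ± 0.16, adjusted p = 1.89e-13). ZDHHC12, a palmitoyltransferase, had 15.8 and 16.4 FPKM against 6.82 and 6.96 FPKM (-1.21 ± 0.21, adjusted p = 1.5e-06). DUSP5, a nuclear phosphatase that inactivates ERK, had 23.4 and 15.7 FPKM against 8.92 and 9.08 FPKM (-1.14 ± 0.15, adjusted p = 6.05e-12). For these 3 genes the lowest si-ctrl library stood above the highest si-PLANE.1 library. GPAT3, an acyltransferase at the entry of triglyceride synthesis, had 30.1 and 45.9 FPKM against 21.5 and 17.6 FPKM (-1.15 ± 0.14, adjusted p = 9.86e-14). HPD, an enzyme of tyrosine breakdown, had 4.90 and 12.2 FPKM against 1.47 and 3.97 FPKM (-1.69 ± 0.27, adjusted p = 5.24e-08), and IGFLR1, a receptor of the tumour necrosis factor receptor family, had 6.39 and 12.4 FPKM against 4.36 and 4.82 FPKM (-1.19 ± 0.40, adjusted p = 0.0404). GPAT3, HPD and IGFLR1 also showed no overlap between the groups, as did 1022 of the 1225 called genes.

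**Figure D2:**
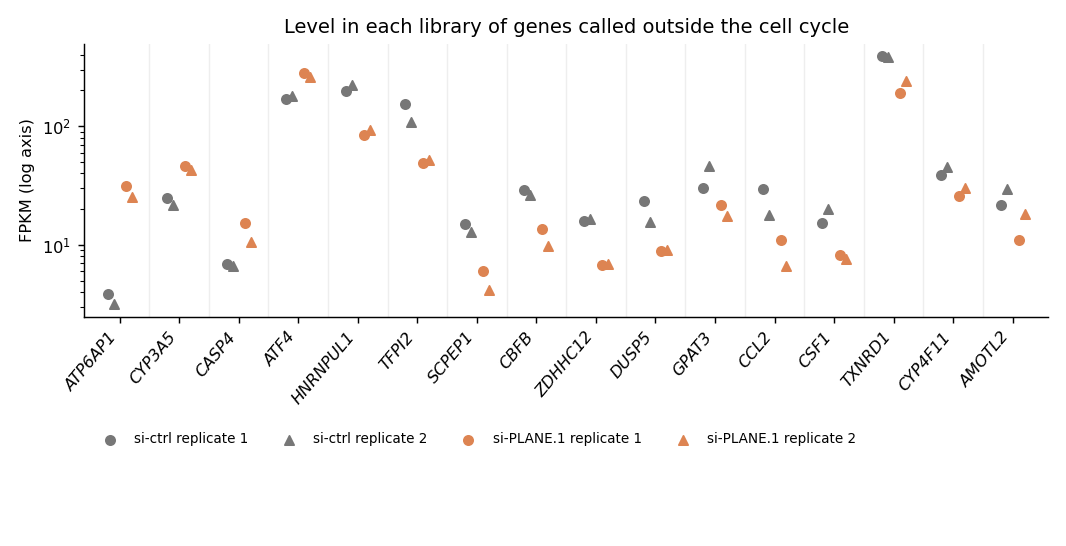
FPKM on a log axis of 16 genes called outside the cell cycle, with si-ctrl in grey and si-PLANE.1 in orange, circles for replicate 1 and triangles for replicate 2. In each gene both orange points lie on the same side of both grey points, from ATP6AP1 with 3.17 to 31.4 FPKM to TXNRD1 with 190 to 387 FPKM.

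Some calls rested on 1 library. DGAT1, which catalyses the last step of triglyceride synthesis, had 14.6 and 13.5 FPKM with si-ctrl against 2.21 and 10.7 FPKM with si-PLANE.1, with a log2 difference of -3.73 in the first pair and -0.51 in the second. Its transcript ENST00000332324 was listed at 0 in the first si-PLANE.1 library and at 7.20 FPKM in the second. The haemoglobin gene HBB, whose product carries oxygen in red cells, had 542 and 515 FPKM with si-ctrl. Its level was 736 FPKM in the first si-PLANE.1 library, and it was listed at 0 in the second. HBA1, with 89.2 and 94.8 FPKM against 137 FPKM, and HBA2, with 55.6 and 58.5 FPKM against 55.5 FPKM, were likewise listed at 0 in the second si-PLANE.1 library. The 3 haemoglobin calls thus came from 1 library, and HBA1 and HBA2 are near-identical copies whose reads cannot be assigned with certainty. The readthrough gene TGIF2-RAB5IF had 6.68 and 12 FPKM in si-ctrl, 4.04 FPKM in the first si-PLANE.1 library and was listed at 0 in the second. The pseudogene SPCS2P4 had 6.15 and 10.7 FPKM against 2.02 and 2.61 FPKM (log2 fold change -1.89 ± 0.44, adjusted p = 0.000807), a value made uncertain by the reads it shares with its parent gene.

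Genes that rose included enzymes of drug metabolism and an inflammatory protease. CYP3A5, a cytochrome P450 that oxidises drugs and steroids, had 24.7 and 21.8 FPKM with si-ctrl against 46.0 and 42.5 FPKM with si-PLANE.1 (log2 fold change 0.73 ± 0.13, adjusted p = 4.13e-06). CASP4, an inflammatory caspase, had 6.96 and 6.62 FPKM against 15.3 and 10.5 FPKM (0.85 ± 0.21, adjusted p = 0.00199). RGCC, a regulator of the cell cycle, had 4.24 and 3.17 FPKM against 9.30 and 7.08 FPKM (1.05 ± 0.31, adjusted p = 0.0154). The groups did not overlap in these genes, nor in LYRM9, a small protein with an LYR motif, which had 2.57 and 3.45 FPKM against 8.08 and 6.60 FPKM (1.06 ± 0.24, adjusted p = 0.000506), or in PRSS3, a trypsinogen, which had 6.00 and 5.14 FPKM against 15.2 and 8.38 FPKM (1.01 ± 0.28, adjusted p = 0.009). The glucuronosyltransferase UGT1A8 had 7.30 and 5.99 FPKM against 19.2 and 11.2 FPKM (1.07 ± 0.16, adjusted p = 5.05e-09), and UGT1A1 and UGT1A6 of the same locus were called higher as well (1.10 ± 0.24 and 0.84 ± 0.19). These UGT1A genes share their last exons, so the split of reads among them is uncertain. The same holds for other genes near the top of the list, namely the copies and pseudogenes POLR2J2 (2.07 ± 0.29), SMG1P4 (2.25 ± 0.51), CES5AP1 (1.41 ± 0.34) and BPTFP1 (1.30 ± 0.42) and the readthrough gene CHKB-CPT1B (1.05 ± 0.25). Of the 15 called genes with the largest rise, 2 had no symbol in the tables.

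Among the NRF2 targets 67.6% of the tested genes were called. NRF2 is the transcription factor that induces antioxidant, detoxifying and pentose phosphate enzymes, and it binds DNA at antioxidant response elements. Of 34 tested targets, 23 were called, of which 22 fell and 1 rose, beside 8.43% of all genes, and the median log2 fold change was -0.46 against 0.001 over all genes. TXNRD1, the cytosolic thioredoxin reductase, carried the largest fall. The 250 bases before RefSeq transcription starts (GRCh38.p14, gene orientation) are shown for TXNRD1 and CYP4F11, the called targets with the smallest adjusted p-values that hold the core of this element there, TGACNNNGC on either strand, with the matched bases in capitals.
TXNRD1 (chr12:104286782-104287031, + strand): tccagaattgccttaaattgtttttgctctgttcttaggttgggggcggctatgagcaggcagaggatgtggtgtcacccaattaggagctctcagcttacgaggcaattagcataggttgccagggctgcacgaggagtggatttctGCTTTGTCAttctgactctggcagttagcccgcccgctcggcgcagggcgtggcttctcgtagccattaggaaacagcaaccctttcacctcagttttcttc
CYP4F11 (chr19:15934868-15935117, - strand): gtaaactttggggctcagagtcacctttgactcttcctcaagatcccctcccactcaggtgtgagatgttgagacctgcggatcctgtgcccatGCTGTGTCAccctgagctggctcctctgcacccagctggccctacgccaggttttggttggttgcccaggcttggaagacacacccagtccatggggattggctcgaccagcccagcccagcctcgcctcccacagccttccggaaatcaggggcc
The letters were found in the promoters of 8 of 24 NRF2 targets with a RefSeq promoter (33.3%) and in 13.2% of 27305 genes, and among called targets in 5 of 17. A match is a description of the letters, not a site or a cause.

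TXNRD1 had 387 and 379 FPKM with si-ctrl against 190 and 242 FPKM with si-PLANE.1 (log2 fold change -0.97 ± 0.12, adjusted p = 2.73e-12), with no overlap between the groups. Of its transcripts, ENST00000503506 had 91.83 and 87.76 FPKM against 46.00 and 49.46 FPKM and ENST00000388854 had 36.16 and 39.15 FPKM against 18.71 and 16.86 FPKM. Its substrate thioredoxin, TXN, had 760 and 729 FPKM against 524 and 511 FPKM (-0.62 ± 0.12, adjusted p = 1.62e-05), and CYP4F11, a fatty acid hydroxylase, had 38.7 and 45.4 FPKM against 25.6 and 30.3 FPKM (-0.67 ± 0.12, adjusted p = 1.79e-06). Both genes were lower in both pairs. The ferritin light chain FTL (-0.65 ± 0.13, adjusted p = 5.37e-05) and heavy chain FTH1 (-0.55 ± 0.13, adjusted p = 0.000847), which store iron, fell together. The same was seen for PGD (-0.39 ± 0.13), TALDO1 (-0.47 ± 0.11) and TKT (-0.40 ± 0.12), enzymes of the pentose phosphate pathway, and for GCLC (-0.35 ± 0.11) and GCLM (-0.48 ± 0.12), the subunits of the ligase that starts glutathione synthesis. NQO1, the quinone reductase used as a standard readout of NRF2, had 1510 and 1220 FPKM against 986 and 971 FPKM (-0.54 ± 0.12, adjusted p = 0.000776), and the aldo-keto reductases AKR1C1 (-0.52 ± 0.12), AKR1B10 (-0.51 ± 0.13) and AKR1C2 (-0.49 ± 0.13) fell as well. AKR1B1, which reduces glucose to sorbitol and is not on the NRF2 list, had 229 and 179 FPKM against 129 and 116 FPKM (-0.79 ± 0.11, adjusted p = 1.35e-09). SLC7A2, an arginine transporter, was the called target that rose, with 30.2 and 19.4 FPKM against 39.7 and 33.4 FPKM (0.51 ± 0.11, adjusted p = 0.000484). The 7 called A549 markers, all of which fell, are also members of the NRF2 list. HMOX1, haem oxygenase 1, had a log2 fold change of -0.31 ± 0.12 (adjusted p = 0.0757) and SLC7A11, the cystine transporter, of -0.23 ± 0.12 (adjusted p = 0.244).

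**Figure D3:**
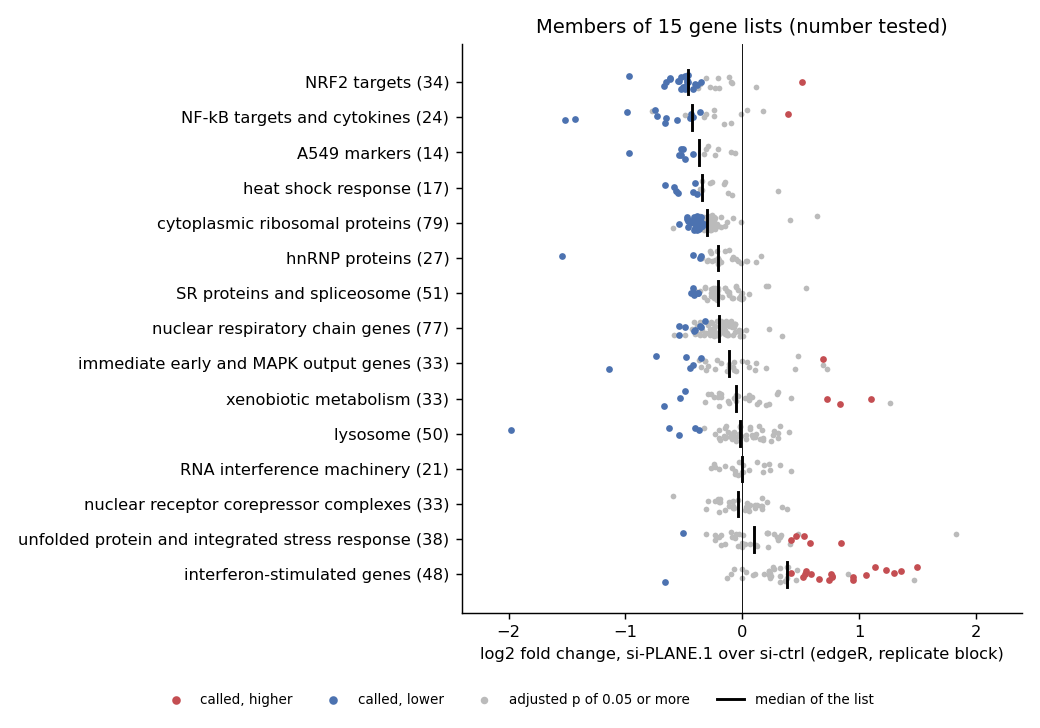
Log2 fold change after si-PLANE.1 (x axis) of each tested member of 15 gene lists (rows, with the number tested), in red and blue where called higher and lower and in grey otherwise, with the median as a black bar. NRF2 targets (median -0.46) and NF-kB targets (-0.43) lie mostly below 0, and interferon-stimulated genes (0.38) mostly above it.

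Among NF-kB targets and cytokines, more genes fell than rose. NF-kB, a transcription factor of inflammation, induces chemokines and its own inhibitors and acts through kB sites in their promoters. Of 24 tested genes, 13 were called, of which 12 fell and 1 rose, beside 8.43% of all genes called and 5.03% called lower, with a median log2 fold change of -0.43. CCL2, the chemokine that attracts monocytes, had 29.4 and 17.9 FPKM with si-ctrl against 11.1 and 6.59 FPKM with si-PLANE.1 (log2 fold change -1.52 ± 0.24, adjusted p = 3.27e-08). CSF1, the macrophage growth factor, had 15.3 and 20.1 FPKM against 8.24 and 7.64 FPKM (-0.99 ± 0.15, adjusted p = 8.83e-09), and CCL20 had 109 and 119 FPKM against 69.8 and 82.8 FPKM (-0.75 ± 0.13, adjusted p = 3.85e-06). In all 3 genes the groups were apart. The neutrophil chemokine CXCL8 had 93.8 and 93.2 FPKM against 65.4 and 48.6 FPKM (-0.66 ± 0.13, adjusted p = 1.66e-05), the related CXCL3 (-0.73 ± 0.18), CXCL2 (-0.56 ± 0.17) and CXCL5 (-0.44 ± 0.12) fell too, and the adhesion receptor ICAM1 had a low level of 1.76 and 1.26 FPKM against 0.92 and 0.35 FPKM (-1.43 ± 0.37, adjusted p = 0.00386). Feedback genes of the pathway fell with them, namely NFKB2 (-0.65 ± 0.13), TNFAIP3 (-0.45 ± 0.14), BIRC3 (-0.42 ± 0.11) and NFKBIA (-0.36 ± 0.11). BCL3, a nuclear cofactor of NF-kB, was the gene that rose, from 82.6 and 104 FPKM to 118 and 128 FPKM (0.39 ± 0.12, adjusted p = 0.0154). PTGS2, the inducible cyclooxygenase, had 130 and 96.0 FPKM against 131 and 99.1 FPKM (-0.01 ± 0.12, adjusted p = 0.984). The promoters of CXCL8, CXCL3 and ICAM1 are shown as the called members with the smallest adjusted p-values that hold the palindromic core of a kB site, GGAANTTCC, in the 250 bases before the start, with the core in capitals.
CXCL8 (chr4:73740319-73740568, + strand): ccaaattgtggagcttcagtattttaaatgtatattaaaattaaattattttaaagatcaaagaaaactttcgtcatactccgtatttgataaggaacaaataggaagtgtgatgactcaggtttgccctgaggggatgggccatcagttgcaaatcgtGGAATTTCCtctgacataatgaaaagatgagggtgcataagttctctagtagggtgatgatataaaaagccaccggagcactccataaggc
CXCL3 (chr4:74038690-74038939, - strand): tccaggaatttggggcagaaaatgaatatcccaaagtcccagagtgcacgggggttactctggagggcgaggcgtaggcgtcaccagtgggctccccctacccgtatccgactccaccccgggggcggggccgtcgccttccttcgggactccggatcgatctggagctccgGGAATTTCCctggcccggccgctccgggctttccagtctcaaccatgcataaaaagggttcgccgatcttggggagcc
ICAM1 (chr19:10270870-10271119, + strand): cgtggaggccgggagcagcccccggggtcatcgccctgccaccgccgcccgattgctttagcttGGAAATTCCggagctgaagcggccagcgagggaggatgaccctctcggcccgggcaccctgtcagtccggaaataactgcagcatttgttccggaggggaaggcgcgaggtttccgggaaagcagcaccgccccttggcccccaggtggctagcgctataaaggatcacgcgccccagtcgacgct
The core was present in 9 of 20 listed genes with a RefSeq promoter (45.0%) and in 0.996% of all 27305 genes, and in 6 of 11 called members.

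Genes of growth factor signalling held fewer calls than the NRF2 and NF-kB lists. Of 33 tested immediate early genes and outputs of the MAPK pathway, 21.2% were called, beside 8.43% of all genes. Of these calls 6 fell and 1 rose, and the list had a median log2 fold change of -0.11. Beside DUSP5, these included MYC, which had 50.5 and 63.6 FPKM with si-ctrl against 41.9 and 48.9 FPKM with si-PLANE.1 (log2 fold change -0.42 ± 0.11, adjusted p = 0.00802), whereas KLF4 rose from 4.31 and 2.92 FPKM to 6.33 and 5.04 FPKM (0.69 ± 0.20, adjusted p = 0.0111). Of 24 targets of YAP and TEAD, 3 fell and 1 rose, a share called of 16.7% beside the same 8.43%. AMOTL2, a junction protein that restrains YAP, had 21.7 and 29.4 FPKM against 11.0 and 18.2 FPKM (-0.90 ± 0.12, adjusted p = 9.05e-11), and GADD45B, a stress-induced gene, rose from 48.1 and 77.9 FPKM to 81.9 and 98.8 FPKM (0.53 ± 0.12, adjusted p = 0.000473). For AMOTL2, 1 transcript, ENST00000249883, had 7.78 and 7.65 FPKM against 7.26 and 7.29 FPKM, while ENST00000422605 had 7.88 and 13.26 FPKM against 1.10 and 5.27 FPKM.

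Some chaperones and ribosomal proteins, which fold and make cytoplasmic proteins, fell by small amounts, beside the 5.03% of all genes that were called lower. Of 17 heat shock genes 7 fell, with a median log2 fold change of -0.34. The HSP90 chaperone HSP90AA1 had 306 and 274 FPKM with si-ctrl against 191 and 226 FPKM with si-PLANE.1 (-0.58 ± 0.12, adjusted p = 0.000168), and its cochaperone STIP1 had 152 and 142 FPKM against 120 and 106 FPKM (-0.57 ± 0.11, adjusted p = 4.36e-05). Of 79 cytoplasmic ribosomal proteins 28 fell, 77 had a log2 fold change under 0, and the median was -0.30. RPS27A, which encodes a ubiquitin fused to a ribosomal protein, had 377 and 376 FPKM against 239 and 320 FPKM (-0.54 ± 0.11, adjusted p = 0.000159). Of the nuclear genes of the respiratory chain 8 of 77 fell, among them NDUFA11 of complex I (-0.54 ± 0.14, adjusted p = 0.00349) and ATP5MC3 of the ATP synthase (-0.54 ± 0.12, adjusted p = 0.000397), with a median of -0.20. Of 35 genes of glycolysis and hypoxia 7 fell, including ENO1 (-0.60 ± 0.12, adjusted p = 0.000121) and LDHB (-0.58 ± 0.12, adjusted p = 8.18e-05), and the median was -0.09.

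These lists hold highly expressed genes, and the log2 fold change fell with expression level across all genes. Its median was 0.19 for genes under 2 FPKM, -0.01 from 10 to 50 FPKM, -0.15 from 100 to 1000 FPKM and -0.30 at 1000 FPKM or more, where 22 of 74 genes were called lower. The median level was 740 FPKM for ribosomal proteins, 235 FPKM for NRF2 targets, 78.3 FPKM for heat shock genes and 20.6 FPKM for NF-kB targets. With cyclic loess offsets, which remove much of this trend and called 5.29% of all genes, 4 ribosomal proteins, 16 NRF2 targets, 5 heat shock genes and 10 NF-kB targets were called, with medians of -0.21, -0.34, -0.31 and -0.36. The calls among respiratory chain genes went from 8 to 3 of 77 and those among genes of glycolysis and hypoxia from 7 to 3 of 35. For ribosomal proteins and respiratory chain genes all calls with these offsets were lower, 4 of 79 and 3 of 77. Over all genes 412 of 14535 were called lower with these offsets. The part of the trend in these results was not tested further.

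**Figure D4:**
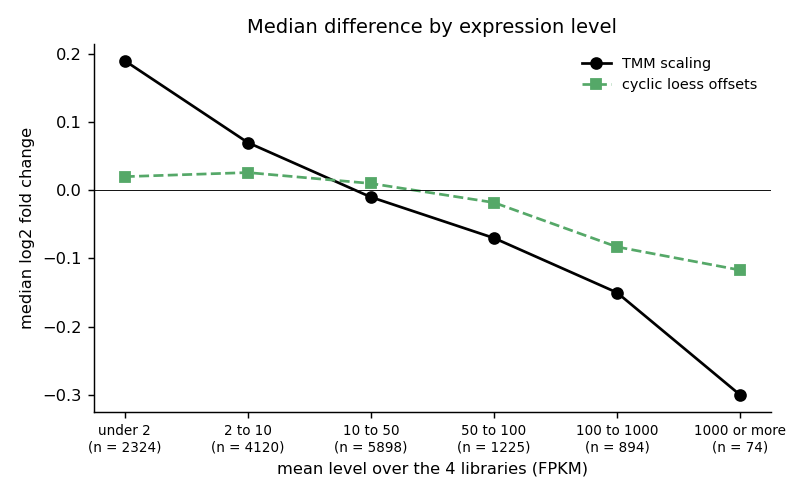
Median log2 fold change after si-PLANE.1 (y axis) of genes in 6 classes of mean FPKM (x axis, with the number of genes), with TMM scaling as circles and with cyclic loess offsets as squares. The TMM medians fall from 0.19 to -0.30 and the loess medians run from 0.02 to -0.117.

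Genes of RNA processing were examined because the study placed PLANE in splicing. Of 27 hnRNP genes 4 fell, beside the 5.03% of all genes called lower, namely HNRNPUL1, PTBP1, HNRNPL and HNRNPA3, with a median log2 fold change of -0.21. PTBP1, a repressor of exon inclusion, had 242 and 257 FPKM with si-ctrl against 217 and 210 FPKM with si-PLANE.1 (-0.42 ± 0.12, adjusted p = 0.00802). Its paralog PTBP2, singled out after its values were seen, had 33.0 and 29.1 FPKM against 72.7 and 58.9 FPKM (1.01 ± 0.14, adjusted p = 1.3e-10). Of 51 SR proteins and spliceosome components 6 fell, including SNRNP70 of the U1 particle (-0.38 ± 0.11, adjusted p = 0.0142) and U2AF2, which reads the polypyrimidine tract (-0.41 ± 0.11, adjusted p = 0.00896), and their median was -0.21. With cyclic loess offsets 1 of 27 hnRNP genes and 2 of 51 spliceosome genes were called, all lower, beside 412 of all 14535 genes called lower. HNRNPM had 74.2 and 57.8 FPKM against 57.4 and 58.0 FPKM, and its log2 fold change of -0.26 ± 0.11 did not pass (adjusted p = 0.152). Factors of nonsense-mediated decay, a list chosen after values were seen, went the other way, with 5 of 10 called higher and 1 lower. SMG5 had 28.3 and 28.6 FPKM against 48.6 and 43.7 FPKM (0.65 ± 0.11, adjusted p = 1.98e-06), and UPF2 had 14 and 13.3 FPKM against 22.6 and 22.6 FPKM (0.66 ± 0.12, adjusted p = 3.52e-06). SMG9 (0.63 ± 0.13) and UPF1 (0.47 ± 0.12) rose as well, and the kinase SMG1 fell (-0.38 ± 0.12).

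Stress genes of the integrated stress response stood among the calls that rose. Of 38 tested genes of this response and of the unfolded protein response, 5 rose and 1 fell, beside 3.4% of all genes that were called higher, and the median was 0.10. ATF4, the transcription factor at the centre of the response, had 169 and 179 FPKM with si-ctrl against 282 and 259 FPKM with si-PLANE.1 (log2 fold change 0.53 ± 0.12, adjusted p = 0.000242). Its target DDIT3 had 7.01 and 7.94 FPKM against 15.5 and 13.8 FPKM (0.85 ± 0.24, adjusted p = 0.00939), and the folate enzyme ALDH1L2 had 4.24 and 3.51 FPKM against 6.52 and 5.82 FPKM (0.58 ± 0.14, adjusted p = 0.00179). In these genes the groups did not overlap. HERPUD1 and DNAJB9, which act on misfolded proteins of the endoplasmic reticulum, rose by smaller amounts (0.42 ± 0.13 and 0.46 ± 0.15). SHMT2, a mitochondrial enzyme of one-carbon metabolism, had 89.0 and 96.6 FPKM against 65.6 and 73.4 FPKM (-0.51 ± 0.12, adjusted p = 0.000612). Its cytosolic counterpart SHMT1 (-0.60 ± 0.14) and the purine and folate enzymes IMPDH2 (-0.55 ± 0.11), MTHFD1 (-0.44 ± 0.11), PAICS (-0.38 ± 0.11) and ATIC (-0.36 ± 0.11) also fell, as members of a list of 19 genes chosen after values were seen, of which 6 fell.

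Interferon-stimulated genes, which encode antiviral effectors, differed far more between replicates than between groups. Of 48 genes 45 were called lower in replicate 2 than in replicate 1 by the same fit, with a median log2 difference of -2.71, whereas 5.59% of all genes were called and 2.92% were called lower. Within this setting 18 genes rose after si-PLANE.1 and 1 fell, beside 3.4% of all genes called higher, with a median log2 fold change of 0.38. Both pairs had the sign of the fitted change in 28 of the 48 genes. Over all genes tested 63.1% had the same sign in both pairs. BST2, the tetherin that holds virions at the cell surface, had 18.9 FPKM with si-ctrl against 50.5 FPKM with si-PLANE.1 in the first pair, and 0.18 and 0.37 FPKM in the second (log2 fold change 1.30 ± 0.24, adjusted p = 1.02e-05). OASL had 11.5 and 32.3 FPKM in the first pair and 0.27 and 0.67 FPKM in the second (1.36 ± 0.21, adjusted p = 2.41e-08). The groups overlap for both genes when the pairs are ignored, and nearly all of their signal lies in the first pair. The same order was found for ISG15, with 125 and 228 FPKM in the first pair and 1.22 and 2.27 FPKM in the second, and for XAF1, with 6.88 and 17.4 FPKM and 0.02 and 0.11 FPKM. IFIT3 had 12.4 and 31.5 FPKM in the first pair but 1.10 and 1.01 FPKM in the second, where si-PLANE.1 was not above si-ctrl, and MX1, with 21.9 and 41.0 FPKM and then 0.29 and 0.28 FPKM, and OAS2, with 35.7 and 61.8 FPKM and then 0.27 and 0.16 FPKM, did the same. Over the list the median log2 difference was 0.56 in the first pair and 0.06 in the second. OAS3 was the called gene that fell, from 140 to 117 FPKM in the first pair and from 30.2 to 15.5 FPKM in the second (-0.66 ± 0.12, adjusted p = 6.5e-06). With 1 library left out and no block the list's median ran from -1.7 to 2.24. What set the replicates apart was not tested. The promoters of BST2 and IFIT3 are shown as the called genes that rose with the smallest adjusted p-values that hold the core of the interferon-stimulated response element, a pair of GAAA copies set 2 bases apart on either strand, in capitals. BST2 and IFIT3 each hold more than 1 match, and IFIT3 and TXNRD1 each have another annotated start with a match.
BST2 (chr19:17405631-17405880, - strand): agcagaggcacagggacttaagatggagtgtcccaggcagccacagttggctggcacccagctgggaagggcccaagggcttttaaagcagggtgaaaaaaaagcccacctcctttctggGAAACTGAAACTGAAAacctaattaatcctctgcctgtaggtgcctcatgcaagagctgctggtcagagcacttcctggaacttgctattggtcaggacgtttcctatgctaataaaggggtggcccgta
IFIT3 (chr10:89332279-89332528, + strand): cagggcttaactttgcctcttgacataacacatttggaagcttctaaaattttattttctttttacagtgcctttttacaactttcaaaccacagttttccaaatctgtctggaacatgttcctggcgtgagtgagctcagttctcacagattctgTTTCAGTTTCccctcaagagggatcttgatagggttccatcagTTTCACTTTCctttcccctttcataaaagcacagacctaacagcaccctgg
The core was found in 24 of 37 listed genes with a RefSeq promoter (64.9%), in 3.71% of 27305 genes, and in 13 of 15 called genes.

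**Figure D5:**
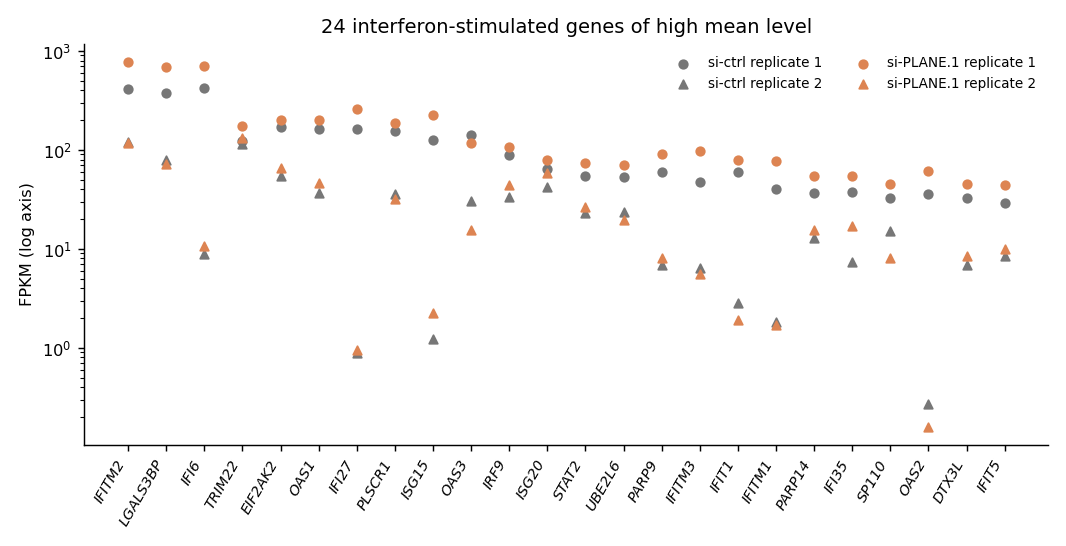
FPKM on a log axis of 24 interferon-stimulated genes of high mean level, with si-ctrl in grey and si-PLANE.1 in orange, circles for replicate 1 and triangles for replicate 2. The replicate 1 libraries lie above the replicate 2 libraries in most genes, as in ISG15 with 125 and 228 FPKM against 1.22 and 2.27 FPKM.

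Other lists, some tied to the study's questions, held few calls. Of 33 genes of nuclear receptor corepressor complexes 0 were called by edgeR with the block, with a median of -0.04, and NCOR1, a scaffold of these complexes, had 121 and 110 FPKM with si-ctrl against 94.1 and 112 FPKM with si-PLANE.1 (log2 fold change -0.21 ± 0.12, adjusted p = 0.29). Of 21 genes of the RNA interference machinery 0 were called, with a median near 0, and of 18 antigen presentation genes 0 were called, with a median of 0.11. At an unadjusted p under 0.05 these lists held 5, 3 and 3 genes, and cyclic loess offsets gave 1, 1 and 0 calls. DESeq2, which called 1.65% of all genes, called 0 in each, but it gave no adjusted p to 8456 of the 14535 genes, among them 8, 5 and 11 genes of these lists, which it could not call. Antigen presentation genes differed between replicates, with 9 of 18 called lower in replicate 2 than in replicate 1 (median -0.93), beside 2.92% of all genes. With 1 library left out and no block, the median of that list ran from -0.31 to 0.81. E2F1 had 7.32 and 7.04 FPKM with si-ctrl against 6.41 and 4.92 FPKM with si-PLANE.1 (-0.44 ± 0.18, adjusted p = 0.113). MELTF, the gene opposite PLANE, had 18.6 and 18.5 FPKM against 22.8 and 18.2 FPKM (-0.04 ± 0.13, adjusted p = 0.909). Of 30 p53 targets 1 rose, SPATA18 (0.88 ± 0.28, adjusted p = 0.027, but -1.45 by its most abundant transcript), and 1 fell, CCNG1, cyclin G1, with 70.0 and 71.5 FPKM against 46.8 and 50.7 FPKM (-0.65 ± 0.11, adjusted p = 1.9e-06). Of 28 apoptosis regulators 2 rose, CASP4 and BCL2L2 (0.51 ± 0.15, adjusted p = 0.0102).

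The lists that follow held between 3.23% and 18.2% called genes, beside the 8.43% of all genes. In the lysosome list 5 of 50 genes fell, among them SCPEP1, LIPA (-0.63 ± 0.12), GLA (-0.54 ± 0.15) and CTSL (-0.37 ± 0.11), which encode hydrolases for peptides, lipids and sugar chains. Of 33 xenobiotic genes 3 rose, CYP3A5, UGT1A1 and UGT1A6, and 3 fell, CYP4F11, EPHX1 and ABCB6, and of 27 cholesterol synthesis genes 2 fell, among them ACAT2 (-0.60 ± 0.16). Of 29 fatty acid and lipid genes 1 rose, LPIN1, a phosphatidate phosphatase (0.49 ± 0.13, adjusted p = 0.00363), and 2 fell, DGAT1 and ELOVL5 (-0.42 ± 0.11). Of 30 epithelial genes 2 rose, MUC1 (0.64 ± 0.19, adjusted p = 0.016) and CLDN7 (0.99 ± 0.32, adjusted p = 0.0277, but -0.45 by its most abundant transcript), and 3 fell, CLDN1 (-0.58 ± 0.11), KRT81 (-0.37 ± 0.12) and ITGA6 (-0.33 ± 0.11). Of 43 mesenchymal and matrix genes 2 rose, COL1A1 (0.71 ± 0.17) and TIMP3 (0.89 ± 0.26), and 3 fell. Of 70 secretory pathway genes 2 rose and 3 fell, of 35 autophagy genes 1 rose and 2 fell, and of 31 proteasome genes 1 fell. Of 47 genes of ribosome biogenesis and MYC targets 5 fell, including NME1 (-0.53 ± 0.11, adjusted p = 0.000207) and the nucleolar protein NCL (-0.44 ± 0.12, adjusted p = 0.00462), and 1 rose, NOLC1 (0.50 ± 0.12, adjusted p = 0.00109). Of 13 genes encoded in mitochondria 2 fell, and the list's median was -0.16 with TMM scaling but 0.10 with cyclic loess offsets.

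The si-PLANE.2 libraries share the si-ctrl libraries with this comparison, so values are given side by side only. Against si-ctrl, 9083 of 14168 genes were called for si-PLANE.2 (64.1%, edgeR without a block), in libraries of 20778431 and 18281765 counts. These libraries stood apart from the other 4 in replication-dependent histone genes, which summed to 238 and 231 FPKM in them. The sums were 6370 and 7790 FPKM with si-ctrl and 4430 and 5480 FPKM with si-PLANE.1. Ribosomal proteins had a median log2 fold change of 1.08 after si-PLANE.2. Haemoglobin genes did not set these libraries apart, with 7.11 and 6.64 FPKM in them and 6.34 FPKM in the second si-PLANE.1 library. They summed to 938 FPKM in the first si-PLANE.1 library and to 696 and 680 FPKM with si-ctrl. The part of such library differences in the values below was not tested. TXNRD1 had a log2 fold change of 1.24 after si-PLANE.2 beside -0.97 after si-PLANE.1, CCL2 of 2.38 beside -1.52, and SCPEP1 of 1.17 beside -1.98. The NRF2 list had a median of 0.71 beside -0.46 and the NF-kB list of 0.73 beside -0.43. HPD had -1.04 beside -1.69 and GPAT3 -0.36 beside -1.15. The cell cycle G2/M list had a median of -0.40 beside -0.37. The cell cycle S phase list went the other way, with 0.74 beside -0.46, as did the remaining cell cycle list, with 0.19 beside -0.38. Nonsense-mediated decay factors had a median of 0.54 beside 0.34, and the stress response list of 0.60 beside 0.10. For HNRNPUL1 the values were -0.07 beside -1.54, and for ATP6AP1 -1.56 beside 5.05.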

How the data were processed

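A549 cells were profiled by bulk RNA-seq. The deposited tables give an expected count and an FPKM value per transcript and library, made by the authors from reads mapped to hg19. The submitters' processing notes name Trimmomatic 0.30, HISAT2 2.0.1, HTSeq 0.6.1 and DESeq, and the estimator of the transcript counts is not given in the sources used here. Expected counts were summed per gene and rounded to whole numbers, and FPKM values were summed over transcripts, so that short transcripts can raise a gene's FPKM. Of 180253 transcripts, 16723 without a gene identifier, which took 3.03% to 3.62% of the counts, were left out.

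Genes averaging 0.5 FPKM or more in the 4 libraries entered a test with edgeR 4.0.16 (R 4.3.3, limma 3.58.1) by quasi-likelihood with TMM scaling and the replicate number as a block, and p-values were adjusted by the Benjamini-Hochberg method with a threshold of 0.05. Standard errors were derived from the fold change and its F statistic. The labels give shared replicate numbers only, and the block was part of the comparison's definition; replicate differences correlated at r = 0.382 across genes, and at 0.264 without interferon genes. The alternatives were a fit without the block, DESeq2 1.42.0, limma on FPKM and TPM, other scalings and filters, the most abundant transcript of each gene and leaving out 1 library. Cyclic loess offsets and 6 lists were added after seeing the data. The statistics were tested on simulated data.

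The text names the 15 genes with the largest change in each direction among called genes outside the cell cycle lists that averaged 5 FPKM or more and had the same sign in both pairs, up to 6 called members per list by adjusted p, genes called without the block, MELTF, HNRNPM, E2F1 and NCOR1, and 4 interferon genes with the largest replicate difference. Further members are named to complete a group. The members and lists were chosen with earlier results of these data known. Promoters are from RefSeq. PLANE was not analysed here. Some genes covered by these rules are not reported here.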

Additional observations from a re-analysis of the deposited data

Results flagged for a closer look

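In 10 of the genes with the largest changes, both libraries moved one way after si-PLANE.1 and both moved the other way after si-PLANE.2. The genes screened were those with a symbol among the 15 with the largest change in each direction. Of all genes tested, 41.1% had no overlap between si-PLANE.1 and si-ctrl. The share of all genes with such opposite orders was not counted, so the number 10 cannot be read as particular to these genes. The comparisons share the si-ctrl libraries, and the difference between the siRNAs was not tested. Among genes that rose after si-PLANE.1, the log2 fold change after si-PLANE.2 was -1.56 for ATP6AP1, -7.9 for CES5AP1, -1.44 for LYRM9, -0.99 for UGT1A8, -0.84 for BPTFP1 and -0.81 for CHKB-CPT1B. Of these, ATP6AP1 (adjusted p = 0.0571), BPTFP1 (0.144) and CHKB-CPT1B (0.236) were not called after si-PLANE.2 by edgeR, in a fit that called 64.1% of genes. CES5AP1 was listed at 0 in both si-PLANE.2 libraries, so its value depends on the prior count and is no bound. Among genes that fell after si-PLANE.1, the value after si-PLANE.2 was 2.38 for CCL2, 1.43 for ZDHHC12, 1.17 for SCPEP1 and 0.63 for DGAT1. CCL2 had 103 and 106 FPKM after si-PLANE.2, and ZDHHC12 had 45.5 and 45.8 FPKM.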

How the results depend on the processing

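The number of calls depended on the replicate block and the tool. Without the block 5 genes were called (1 higher, 4 lower) in place of 1225 (494 higher, 731 lower). DESeq2 with the block called 240 (53 higher, 187 lower). The limma fits on log2(FPKM + 1), log2(FPKM + 0.1) and log2(TPM + 1) called 0 genes, 0 higher and 0 lower, with 1631, 1481 and 2283 genes at an unadjusted p under 0.05, and the TPM fit moved the median of all genes to 0.13. The most abundant transcript of each gene gave 12 calls (5 higher, 7 lower). Library totals gave 973 higher and 435 lower. Cyclic loess offsets, chosen after seeing the data, gave 769 calls (357 higher, 412 lower), of which 733 were shared with the 1225. An adjusted p under 0.01 kept 595 (211 higher, 384 lower), and an absolute log2 fold change of at least 0.5 kept 694 (328 higher, 366 lower). With 1 library left out and no block, 1 to 4 genes were called, 1 to 2 higher and 0 to 3 lower; the lone sample was assumed to vary like the other group. The cause was not tested.

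Of 206 named genes 20 changed sign under some alternative while called in the main fit or in that alternative. Sign changes of genes called in neither were not counted, such as that of CANX, with -0.16 in the main fit and 0.04 with cyclic loess offsets. With 1 library left out the log2 fold change ran from -1.54 to 0.47 for ADM, -4.68 to 6.89 for BST2, -1.01 to 0.02 for DUSP1, -11.6 to 0.45 for HBA1, -12.56 to 0.28 for HBB, -6.32 to 7.72 for IFI44L, -0.49 to 3.66 for IFIT2, -2.77 to 3.76 for IFIT3, -4.82 to 6.40 for ISG15, -5.52 to 6.00 for MX1, -6.20 to 6.41 for OAS2, -2.48 to 1.08 for OAS3, -3.09 to 5.70 for OASL, -1.18 to 0.13 for SLC2A3, -1.02 to 0.08 for TFE3 and -4.47 to 7.5 for XAF1. By the most abundant transcript the values were 0.14 for ALDH3A2, -0.45 for CLDN7, 0.05 for PSMC5 and -1.45 for SPATA18.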

Other observations

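Further lists chosen after values were seen held calls that fell, beside the 5.03% of all genes called lower. Of the 8 subunits of TRiC, the chaperonin that folds actin and tubulin, 5 fell after si-PLANE.1 and all 8 had a log2 fold change under 0 (median -0.37), with -0.45 ± 0.11 for both TCP1 and CCT3. Their median level was 100 FPKM, and 78.3% of all genes from 100 to 1000 FPKM were under 0. The median was -0.57 in the first pair and -0.14 in the second, and 2 were called with cyclic loess offsets and 1 by DESeq2. Of 18 circadian clock genes 2 fell, PER1 (-0.60 ± 0.15, adjusted p = 0.00335) and DBP (-0.64 ± 0.21, adjusted p = 0.0383, and 0.0541 with cyclic loess offsets), a share of 11.1% near that of all genes called. Of 36 replication-dependent histone genes 24 fell, with a median of -0.64, and 11 were called between replicates. Of 36 genes of coagulation, complement and protease inhibitors 2 rose and 2 fell, a share of 11.1% beside 8.43% of all genes, with a median of -0.10. TFPI2 and SERPINB9 (-0.36 ± 0.11) fell. THBD, which encodes thrombomodulin, rose from a low 1.10 and 0.69 FPKM to 2.06 and 1.99 FPKM (1.10 ± 0.27, adjusted p = 0.00198). C4BPA, a binding protein of complement C4, rose as well (0.81 ± 0.24, adjusted p = 0.0174, and 0.062 with cyclic loess offsets).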
